A study of Drosophila melanogaster with 2 samples.

Results

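The genes of the Decapentaplegic (Dpp) signalling pathway described here were the ligands dpp and gbb, the receptors tkv, sax and put, and the nuclear factors Mad, Med, shn, Dad and brk. They were 10 of the 13945 protein-coding genes annotated on the 6 main chromosome arms, and were chosen by name. The choice was made with earlier results of these data known, so the shares below are a description and not a test. A peak was counted for a gene when its summit, the base with the most signal, lay in the gene or within 5 kb of either end. By this rule 28 of the 2546 peaks of the optimal set belonged to these genes, and 9 of the 10 genes had at least 1 of them; sax had none. The same held for 4282 of all protein-coding genes (30.7%).

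The data came from chromatin immunoprecipitation with sequencing (ChIP-seq) on Drosophila melanogaster of strain CG32264-GFP, an insertion line in which CG32264, a phosphatase and actin regulator family protein, carries green fluorescent protein at its C-terminal end. Whole larvae of mixed sex were taken at the third instar while wandering, with an age the labels call unknown. Chromatin was sonicated to 200 to 800 bp, and an antibody against GFP was used. There was 1 group with 2 biological replicates, numbered 1 and 3, both of this genotype and stage, and a control library was not analysed here. Tissues were not separated, so a peak present in few cells and a weak peak in many cells cannot be told apart. Peaks of each replicate, and of both replicates together, were listed as 30000 regions of peaks and background, and the authors' optimal set held the 2546 regions kept by the irreproducible discovery rate (IDR), a comparison of peak ranks between replicates. Rank 1 is the highest signal of a list, and the optimal set has the ranks of the list of both replicates together. The rank of an optimal-set peak in a replicate is that of the best-ranked peak there that overlaps it by at least 1 bp. Of the optimal set, 26 regions overlapped no peak listed for replicate 1, and 6 none listed for replicate 3. A place in the set thus did not require a listed peak in both replicates.

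Dpp and Gbb are secreted ligands of the bone morphogenetic protein (BMP) family. They bind type I receptors, such as Tkv and Sax, together with the type II receptor Put, which phosphorylate the Smad protein Mad. Phosphorylated Mad enters the nucleus with the co-Smad Med, and with the zinc finger protein Shn the complex silences brk, which encodes a repressor of many Dpp target genes. Dad is an inhibitory Smad whose gene is itself a target of the pathway. In larvae the pathway is known for patterning and growth of the imaginal discs, and for growth of motor neuron synapses.

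The sequences from 100 bases before to 100 bases after 6 summits are printed because they hold the only optimal-set peak of dpp and of Mad, the strongest peak of tkv, Dad and brk, and the 1 peak next to a start of tkv. They were read from Release 6 (dm6) on the plus strand, 5′ to 3′. Capitals mark matches, on either strand, to the GATA site (A or T, then GATA, then A or G) or to the GAGA element GAGAGAG.
dpp, rank 535, chr2L:2433567-2433767: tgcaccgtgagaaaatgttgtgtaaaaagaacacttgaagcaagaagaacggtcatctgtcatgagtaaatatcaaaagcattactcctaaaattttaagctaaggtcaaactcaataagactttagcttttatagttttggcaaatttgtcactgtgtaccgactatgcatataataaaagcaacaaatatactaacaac
tkv, rank 180, chr2L:5254209-5254409: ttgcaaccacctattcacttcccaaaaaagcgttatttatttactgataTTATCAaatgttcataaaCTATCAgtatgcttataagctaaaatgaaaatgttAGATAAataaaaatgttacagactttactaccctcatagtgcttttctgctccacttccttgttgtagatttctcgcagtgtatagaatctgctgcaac
tkv, rank 1941, chr2L:5237322-5237522: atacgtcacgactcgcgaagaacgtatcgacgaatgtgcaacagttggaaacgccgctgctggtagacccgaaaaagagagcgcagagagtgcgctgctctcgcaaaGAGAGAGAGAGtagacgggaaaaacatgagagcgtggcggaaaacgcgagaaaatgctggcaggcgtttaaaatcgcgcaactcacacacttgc
Mad, rank 952, chr2L:3153315-3153515: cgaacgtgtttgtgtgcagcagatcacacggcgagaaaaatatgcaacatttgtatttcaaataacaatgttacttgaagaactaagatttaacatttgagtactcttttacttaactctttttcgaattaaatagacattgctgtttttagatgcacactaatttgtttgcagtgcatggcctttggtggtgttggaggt
Dad, rank 359, chr3R:17065057-17065257: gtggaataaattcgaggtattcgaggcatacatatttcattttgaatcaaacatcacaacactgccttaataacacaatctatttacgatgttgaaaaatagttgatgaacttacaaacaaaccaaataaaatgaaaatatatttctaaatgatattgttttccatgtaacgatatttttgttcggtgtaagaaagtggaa
brk, rank 742, chrX:7307034-7307234: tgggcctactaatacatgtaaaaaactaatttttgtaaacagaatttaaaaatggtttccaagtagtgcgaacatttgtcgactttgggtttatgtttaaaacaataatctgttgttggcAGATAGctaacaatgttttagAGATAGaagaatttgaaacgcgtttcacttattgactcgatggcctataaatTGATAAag

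The tkv summit of rank 180 held 3 GATA matches, and so did the brk summit of rank 742. The tkv summit of rank 1941 held 1 run of overlapping GAGA matches, counted as 3 matches. The dpp, Mad and Dad sequences held no match to any of the 7 motifs searched. GC content was 32.3% around the dpp summit, 32.3% and 52.7% around those of tkv at ranks 180 and 1941, 35.3% at Mad, 28.4% at Dad and 31.3% at brk.

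Of the 28 optimal-set summits, 20 were at the nuclear factors, and 12 of these were at shn alone. The nuclear factors had 1.37 per 10 kb over 145.8 kb of window, and without shn the other 4 had 8 summits in 77.5 kb (1.03 per 10 kb). The receptors had 6 in 92.6 kb (0.648 per 10 kb), and the 2 ligands had 2 in 53.1 kb (0.376 per 10 kb). Counted in the gene alone, Mad and Dad held 1 summit each, and Med and brk 0. By that count tkv held 5, put 1 and sax 0. The higher density of the nuclear factors without shn, beside the receptors, thus depended on the 5 kb on each side. All 10 genes together had 0.960 per 10 kb, and the 9 genes without shn had 16 summits, or 0.717 per 10 kb. On the 6 arms as a whole the density was 0.190 per 10 kb, and the median over single protein-coding genes was 0, with a 90th percentile of 0.914. A closer background is the rate of the negative binomial model described below. Fitted over the same kind of window for all protein-coding genes, it was 0.289 per 10 kb. Windows centred on genes and the arms as a whole differ in makeup, and this difference was not tested.

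**Figure D1:**
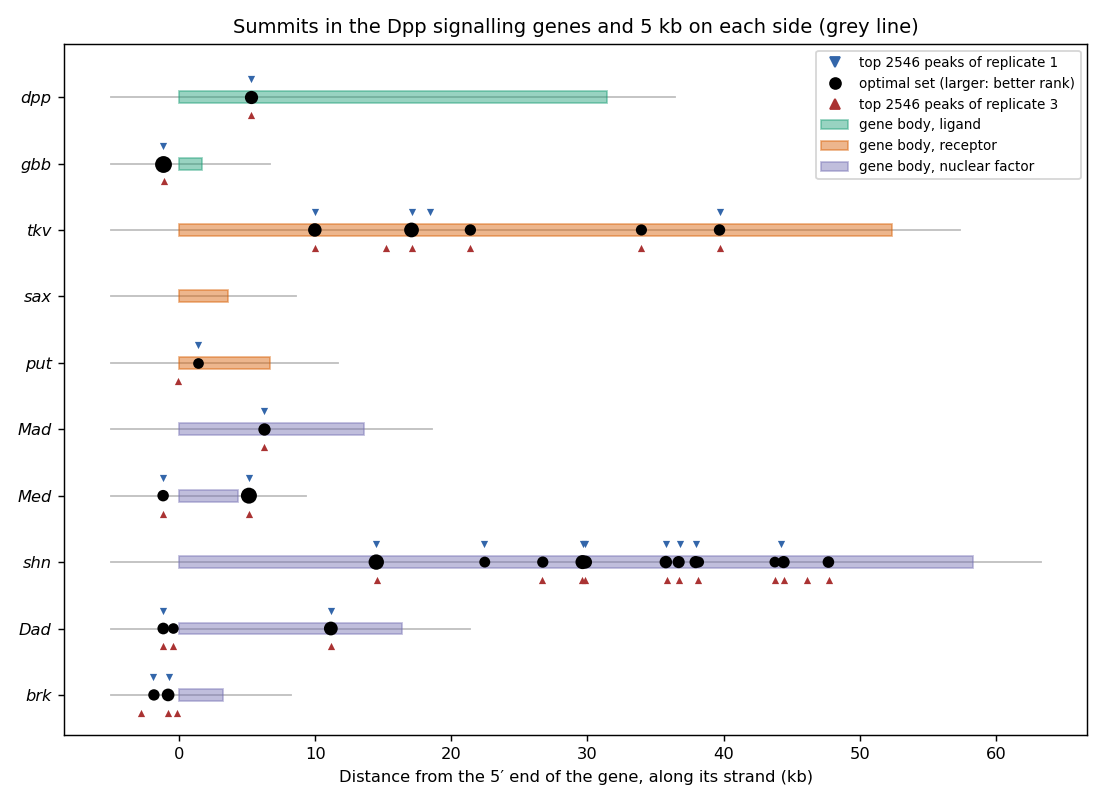
Summits of the 10 Dpp signalling genes along each gene, in kb from its 5′ end, for the optimal set (black circles), the top 2546 peaks of replicate 1 (triangles above) and of replicate 3 (triangles below). The 12 summits of shn spread over 33.2 kb of the gene, while sax holds none in any of the 3 sets.

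The ligand gene dpp (FBgn0000490, 2L 2428372 to 2459823, plus strand) held 1 optimal-set summit in a window of 41.5 kb. The peak (2L 2433578 to 2433691, summit 2433667) was in an intron 5295 bp from the nearest start of dpp, and no other gene's start was nearer. It ranked 535 in the optimal set with a signal of 141, 400 in replicate 1 and 1112 in replicate 3. In the whole lists dpp had 11 summits in replicate 1 (2.65 per 10 kb), 6 in replicate 3 (1.45 per 10 kb) and 7 in the list of both replicates (1.69 per 10 kb). Its next-best peak in the list of both replicates ranked only 6714, lay 1768 bp upstream, and had no partner in the list of replicate 3. So the dpp signal within the optimal set came from a single intronic region found in both replicates.

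The ligand gene gbb (FBgn0024234, 2R 23851562 to 23853247, plus strand) had the best-ranked peak of all 10 genes, and also 1 summit only, in a window of 11.7 kb. The peak (2R 23850283 to 23850533) ranked 34 in the optimal set with a signal of 455, 28 in replicate 1 and 75 in replicate 3. Its summit lay 1162 bp upstream of gbb in a non-coding exon, and 2 other starts were much nearer. The start of asRNA:CR45928 was 70 bp away, and that of eIF6, a translation initiation factor gene, was 99 bp away. The summit also fell within 5 kb of CG5554, ytr and bgcn, so the count of gbb is shared with 4 protein-coding neighbours. Over the whole lists gbb had 4 summits in replicate 1 (3.42 per 10 kb), 3 in replicate 3 (2.57 per 10 kb) and 6 in the list of both replicates (5.13 per 10 kb).

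Among the receptors, tkv (FBgn0003716, 2L 5219000 to 5271384, minus strand), a type I receptor gene, held 5 of the 6 summits, all in introns and spread over 29.7 kb. Its density was 0.801 per 10 kb (exact Poisson 95% interval 0.260 to 1.87, counting error only). The highest peak (2L 5254194 to 5254417) had a signal of 229 and ranked 180 in the optimal set, 240 in replicate 1 and 136 in replicate 3. It was 10170 bp from the nearest tkv start, 9692 bp from that of Cyp4ac1 and 4633 bp from that of lncRNA:CR44744, a non-coding RNA gene. A second (2L 5261221 to 5261596) had a signal of 156 and ranked 440 in the optimal set, 633 in replicate 1 and 334 in replicate 3. Its summit was 9975 bp from the nearest tkv start, 2592 bp from that of Cyp4ac1 and 2467 bp from that of lncRNA:CR44744. With Cyp4ac1 and Cyp4ac2, tkv shared 1 summit of its window.

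The other 3 tkv peaks were weaker. The peak at rank 1644 (2L 5231497 to 5231872) ranked 2361 in replicate 1 and 1718 in replicate 3. The peak at rank 1731 (2L 5249797 to 5250172) ranked 3373 in replicate 1 and 1441 in replicate 3. The peak at rank 1941 (2L 5237234 to 5237609), whose GAGA run is printed above, lay 60 bp from a tkv start and ranked 6166 in replicate 1 and 692 in replicate 3. It was the only tkv summit within 500 bp of a tkv start, and it fell within the top 2546 of 1 replicate alone. In the whole lists tkv had 34 summits in replicate 1 (5.45 per 10 kb), 41 in replicate 3 (6.57 per 10 kb) and 36 in the list of both replicates (5.77 per 10 kb).

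The type II receptor gene put (FBgn0003169, 3R 14619030 to 14625703, minus strand) held 1 summit, near the end of the optimal set. The peak (3R 14624101 to 14624476) had a signal of 63.4, ranked 2428 in the optimal set, 2500 in replicate 1 and 2566 in replicate 3, and was in an intron 1414 bp from the start. In replicate 3 it therefore fell just outside the top 2546. A different peak there ranked 2275, with its summit 106 bp upstream of put and 21 bp from the start of the histone gene His4r. The corresponding peak of the list of both replicates ranked 3534, past the end of the optimal set. Over the whole lists put had 4 summits in replicate 1 (2.40 per 10 kb), 8 in replicate 3 and 8 in the list of both replicates (4.80 per 10 kb in each).

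The type I receptor gene sax (FBgn0003317, 2R 7806484 to 7810067, plus strand) was the 1 gene with no optimal-set summit in its window of 13.6 kb. A count of 0 allows up to 2.72 per 10 kb (exact Poisson 95% interval). It had 5 summits in the whole list of replicate 1 (3.68 per 10 kb), 6 in that of replicate 3 (4.42 per 10 kb) and 4 in that of both replicates (2.94 per 10 kb). The best ranked 2722 with both replicates together, 3021 in replicate 1 and 3270 in replicate 3, and its summit lay 2336 bp downstream of sax and 101 bp from the start of puml. At the sax start itself, a summit 17 bp away ranked 5927 with both replicates together. Replicate 1 had one 10 bp from the start at rank 8140, and replicate 3 one 49 bp from it at rank 6310. Replicate 1 also had a better-ranked peak there, at rank 3879, with its summit 107 bp upstream of sax and 8 bp from the start of the neighbour Nop17l. Weak peaks at the starts of sax and Nop17l were thus listed, below the IDR limit.

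The receptor-activated Smad gene Mad (FBgn0011648, 2L 3146056 to 3159643, minus strand) held 1 summit in a window of 23.6 kb. Its peak (2L 3153227 to 3153602) had a signal of 106 and ranked 952 in the optimal set, 893 in replicate 1 and 1214 in replicate 3, in an intron 662 bp from a start of Mad. In the whole lists Mad had 12 summits in replicate 1 (5.09 per 10 kb), 7 in replicate 3 (2.97 per 10 kb) and 8 in the list of both replicates (3.39 per 10 kb). The next optimal-set summit outside its window was 106094 bp away, the farthest for any of the 10 genes.

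The co-Smad gene Med (FBgn0288966, 3R 31611046 to 31615375, plus strand) held 2 summits, both outside the gene and both at the start of a neighbour. The stronger (3R 31616067 to 31616301) had a signal of 344 and ranked 69 in the optimal set, 49 in replicate 1 and 240 in replicate 3. It lay 803 bp downstream of Med and 18 bp from the start of Mnat9. The weaker (3R 31609688 to 31610063) ranked 1565 in the optimal set, 2014 in replicate 1 and 1695 in replicate 3, and lay 1170 bp upstream of Med and 61 bp from the start of CycG, a cyclin gene. Across the whole lists Med had 5 summits in replicate 1 (3.49 per 10 kb), 10 in replicate 3 (6.98 per 10 kb) and 6 in the list of both replicates (4.19 per 10 kb).

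The gene shn (FBgn0003396, 2R 11159086 to 11217394, plus strand) held 12 of the 28 summits, more than any other of the 10 genes. Only 3 protein-coding genes had more, Eip75B, kirre and sbb with 13 each. By density shn (1.76 per 10 kb, exact Poisson 95% interval 0.908 to 3.07) ranked 376 of the 13945 genes. Every shn summit was in an intron, and for each the nearest annotated start of any gene was one of the 5 of shn. The gaps between neighbouring summits were 222 to 7969 bp (median 2918 bp).

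The strongest shn peak (2R 11173437 to 11173577) was 231 bp from a shn start, with a signal of 283. It ranked 113 in the optimal set, 417 in replicate 1 and 26 in replicate 3, the best rank that any peak of the 10 genes had in replicate 3. The next (2R 11188652 to 11188788) had a signal of 186, ranked 297 in the optimal set, 190 in replicate 1 and 433 in replicate 3, and was 5496 bp from the nearest shn start. The remaining 10 ranked 633 to 2359 in the optimal set. The last of them, at rank 2359, overlapped a peak at rank 1300 of replicate 3 and none of the whole list of replicate 1.

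The shn count rests in part on overlapping peaks. The peaks at ranks 297 and 633 overlapped each other, as did those at ranks 1010 and 2301, and each pair shared its best-ranked partner in both replicates, so the 12 peaks covered 10 separate regions. Counted in the top 2546 of each replicate alone, shn had 8 summits in replicate 1 (33 in the whole list, 4.83 per 10 kb) and 11 in replicate 3 (40 in the whole list, 5.86 per 10 kb). The list of both replicates held 39 (5.71 per 10 kb).

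The inhibitory Smad gene Dad (FBgn0020493, 3R 17054007 to 17070408, plus strand) held 3 summits, 1 in an intron and 2 upstream. The intronic peak (3R 17064969 to 17065344) had a signal of 172 and ranked 359 in the optimal set, 521 in replicate 1 and 253 in replicate 3. It was 10260 bp from the nearest start of Dad, and the nearest start of any gene, that of Ns1, was 7518 bp away. The upstream peaks lay 1158 bp from Dad at rank 1365 (1876 in replicate 1, 1386 in replicate 3) and 415 bp from it at rank 2525 (4626 in replicate 1, 2467 in replicate 3). Dad was the densest of the 10 genes in the list of both replicates, with 19 summits (7.20 per 10 kb); the whole lists had 12 in replicate 1 (4.55 per 10 kb) and 19 in replicate 3 (7.20 per 10 kb).

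The repressor gene brk (FBgn0024250, X 7307939 to 7311132, plus strand), which the Mad, Med and Shn complex is known to silence, held 2 summits, both upstream and both nearer to brk than to any other start. The peak 805 bp upstream (X 7306946 to 7307321) had a signal of 121 and ranked 742 in the optimal set, 627 in replicate 1 and 1188 in replicate 3. The peak 1845 bp upstream (X 7305906 to 7306281) had a signal of 78.3 and ranked 1664 in the optimal set, 1804 in replicate 1 and 2621 in replicate 3. Both lay in an intron of CG1677 as well as in the window of brk. Across the whole lists brk had 6 summits in replicate 1 (4.55 per 10 kb), 7 in replicate 3 (5.31 per 10 kb) and 8 in the list of both replicates (6.06 per 10 kb).

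A further pair of brk peaks differed widely between the replicates and fell past the optimal set. One, 16 bp from the brk start, ranked 3329 with both replicates together. The best-ranked peak that overlapped it in replicate 3 ranked 1054, with its summit 162 bp upstream of brk. In replicate 1 the overlapping peak ranked 13293, with its summit in the 5′ UTR, 89 bp from the start. The other, 2763 bp upstream, ranked 2580 with both replicates together, 1026 in replicate 3 and 9854 in replicate 1. Another replicate 3 peak, with its summit 43 bp from the brk start, ranked 17392. Near the start of brk the summits of the replicates thus differed in place as well as in rank.

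**Figure D2:**
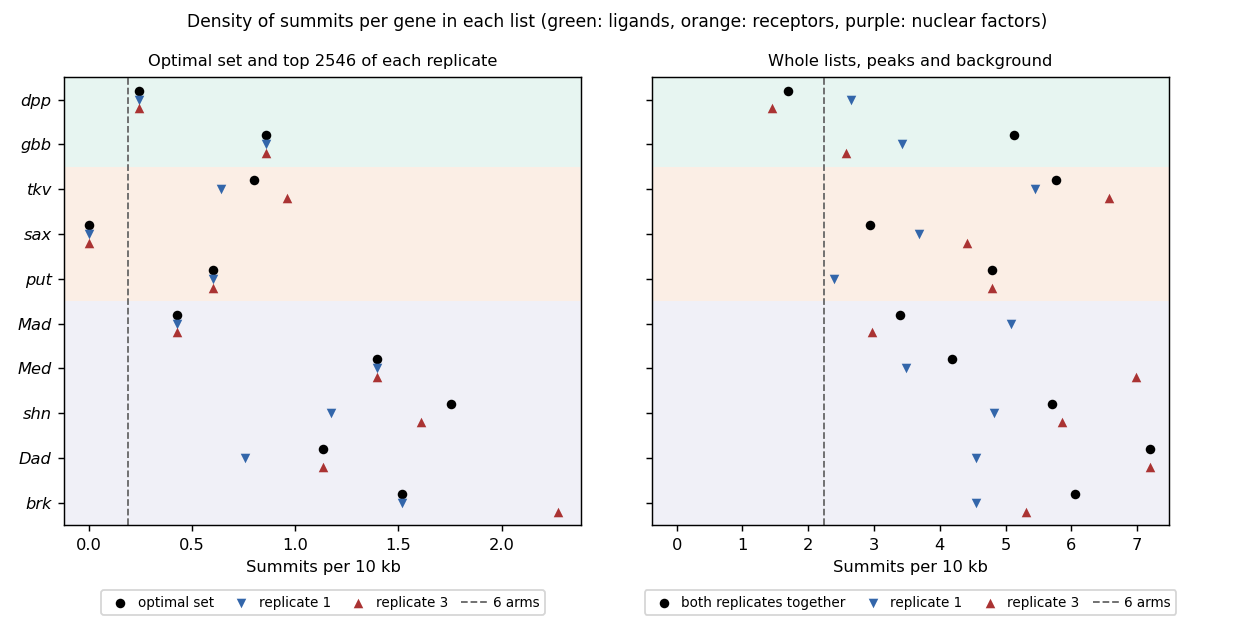
Summits per 10 kb of window for each gene, in the optimal set and the top 2546 peaks of each replicate (left) and in the whole lists of peaks and background (right); the dashed line is the density over the 6 arms (0.190 left, 2.24 right). In the optimal set the values run from 0 at sax to 1.76 at shn.

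In order of density in the optimal set, shn (1.76 per 10 kb) was followed by brk (1.52), Med (1.40), Dad (1.14), gbb (0.856), tkv (0.801), put (0.600), Mad (0.424), dpp (0.241) and sax (0). With 1 to 3 summits in most genes, the exact Poisson intervals were wide. That of brk ran from 0.184 to 5.48 per 10 kb, that of Med from 0.169 to 5.04, that of Dad from 0.234 to 3.32 and that of gbb from 0.0217 to 4.77. Those of put (0.0152 to 3.34), Mad (0.0107 to 2.36) and dpp (0.00611 to 1.34) were as wide for their size. The intervals of neighbours in this order overlapped in every case, and that of shn overlapped those of all the others. Such overlap does not show that the densities were alike.

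The whole lists gave another picture, because nearly every gene had a summit in them. All 10 genes had at least 1 in the list of both replicates, against 85.1% of all protein-coding genes. All 10 also had at least 1 in the whole list of replicate 1, against 87.9%, and in that of replicate 3, against 86.4%. The shares are close to those of any gene, so they say little about these 10. Restricting each replicate to its top 2546 peaks left 9 of the 10 genes with a summit in replicate 1, against 32.1% of all genes, and likewise 9 of the 10 in replicate 3, against 28.1%.

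In the list of both replicates, the densities were 5.49 per 10 kb for the nuclear factors, 5.18 for the receptors and 2.45 for the ligands, against a median of 2.53 over all protein-coding genes. In replicate 1 they were 4.66, 4.64 and 2.82 in the same order, against a median of 2.53 over all genes, and in replicate 3 they were 5.69, 5.94 and 1.69, against 2.65. The density of a role divides all its summits by all its window length, while the median is taken over single genes. These are unlike measures, so their ratio is not an enrichment. Differences between the roles were not tested. In the top 2546 of replicate 1 the nuclear factors had 1.03 per 10 kb, the receptors 0.540 and the ligands 0.376. In those of replicate 3 they had 1.37, 0.756 and 0.376.

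Of the 141 peaks of these genes in the list of both replicates, 28 (19.9%) were in its top 2546, against 8.49% of the list. The share was 17.5% of 126 peaks in replicate 1 and 19.7% of 147 in replicate 3. Within the optimal set, the median rank of the 28 was 1027, and 9 of them were in the strongest 25% of the set. The IDR limit fell between put at rank 2428 and Dad at rank 2525, both inside, and brk at 2580 and sax at 2722, both outside.

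Long genes offer more room for peaks, so each gene was set against its length. A negative binomial model of the summit count, with 1 rate and 1 dispersion over all 13945 protein-coding genes and the window length as offset, gave an expected 1.97 summits for shn. The observed 12 were 6.08 times this number, with an unadjusted two-sided p of 0.0141 and a Benjamini-Hochberg adjusted p of 1 in this negative binomial fit. The fit called 0 of the 10 genes and 0 of all genes (0%) at an adjusted p of 0.05. At an unadjusted p under 0.05 it gave 188 genes higher (1.35%) and 1 lower, and the lowest adjusted p over all genes was 0.0716, at CG12078. Few calls were within reach of this fit. As the only gene called, shn would have needed 32 summits, tkv 30, dpp 22, Dad 16, Mad 15, put 12, Med, brk and sax 11 each, and gbb 10, while no gene had more than 13. The absence of a call therefore says little about these genes.

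A Poisson model, which leaves no room for peaks to cluster, called 14 genes higher and 5 lower, and shn was one of the 14 with an adjusted p of 0.00337 in that fit. The call of shn thus held in the Poisson fit alone. For the others, the expected counts of the negative binomial fit beside those observed were 1.80 for 5 at tkv, 0.763 for 3 at Dad, 0.381 for 2 at brk, 0.414 for 2 at Med, and 0.392 for 0 at sax. Expected counts were 0.338 at gbb, 0.482 at put, 0.681 at Mad and 1.20 at dpp, each with 1 observed. These tests run over genes of 1 peak set and do not measure the spread between larvae.

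**Figure D3:**
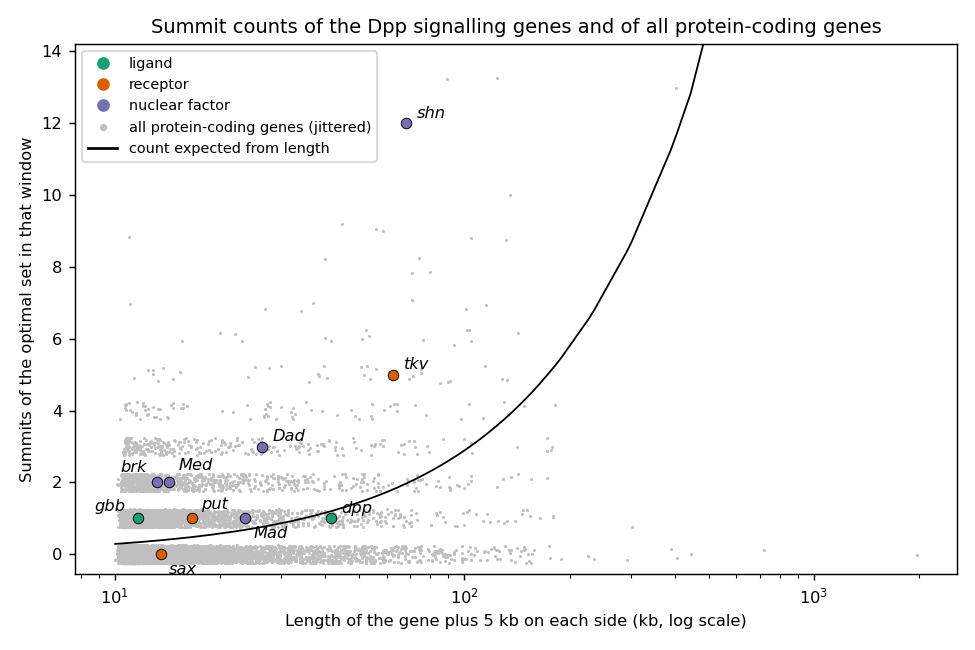
Optimal-set summits of each gene against the length of its window (log scale) for the 10 Dpp signalling genes (large coloured points) and all 13945 protein-coding genes (small grey points, shifted at random around whole counts); the line is the count expected from length. The count of shn is 12 against an expected 1.97, and dpp, at 1 against 1.20, and sax, at 0 against 0.392, are the only members below the line.

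Among genes of like length, the members were placed as follows, as a description with no test. Of the 307 protein-coding genes with a window of 60 kb or more, 10.1% had 5 summits or more, as tkv did, and 4 had 12 or more, shn among them. Of the 2471 genes with windows of 15 to 30 kb, 4.57% had 3 or more, as Dad did, and 40.5% had at least 1, as put and Mad did. Of the 10461 genes with windows of 10 to 15 kb, 6.90% had 2 or more, as Med and brk did, and 26.8% had at least 1, as gbb did. Of the 706 genes of 30 to 60 kb, 45.6% had at least 1, as dpp did.

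Each of the 28 peaks overlapped a top 2546 peak of at least 1 replicate, by at least 1 bp. All but 66 peaks (2.59%) of the whole optimal set did so too, which says little about these genes. A top peak of replicate 3 was overlapped by 25 of the 28 (89.3%, exact Clopper-Pearson 95% interval 71.8 to 97.7%), against 73.4% of the whole optimal set. In replicate 1 it was so for 22 (78.6%, 59.0 to 91.7%), against 85.6%. In both replicates it was so for 19 (67.9%, 47.6 to 84.1%), against 61.6%. In all 3 cases the value of the whole set lay inside the interval of the 28. These intervals take the 28 peaks as independent, which peaks of the same gene are not, so they may be too narrow. Of the 12 shn peaks, 9 overlapped a top peak of replicate 1, 11 one of replicate 3, and 8 both. With the summits required to lie within 100 bp, the count in both replicates was 4 of the 12 for shn. For all members it was then 15 of 28 (53.6%), against 55.9% of the whole set, so the order of the 2 shares depended on this choice.

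Of the 27 peaks with a partner in the whole list of each replicate, 14 ranked better in replicate 3 and 13 in replicate 1. Among the 27 were 4 shn peaks that shared partners pairwise, as given above, so these were not separate comparisons. In the whole optimal set, 41.3% of 2514 ranked better in replicate 3 and 58.6% in replicate 1. Some of the widest gaps were at tkv, where the peak at rank 1941 ranked 6166 in replicate 1 and 692 in replicate 3, and at shn, where the peak at rank 1472 ranked 4682 in replicate 1 and 723 in replicate 3. Both ranked better in replicate 3. The peaks of dpp, gbb and Mad, and the stronger peak of Med and of brk, ranked better in replicate 1.

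**Figure D4:**
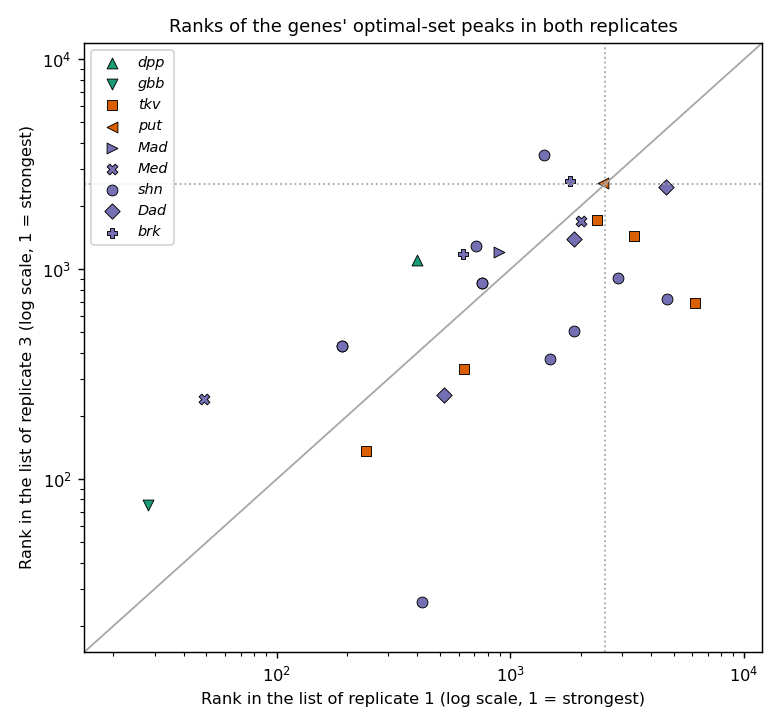
Rank of each of the 27 optimal-set peaks with partners in both replicates, in the list of replicate 1 (horizontal, log scale) and of replicate 3 (vertical, log scale); the diagonal marks equal ranks and dotted lines mark rank 2546. Points lie on both sides of the diagonal, from gbb at ranks 28 and 75 to tkv at ranks 6166 and 692.

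Introns held most of the peaks of these genes. Of the 28 summits, 24 (85.7%) were in introns, 3 (10.7%) were intergenic, 1 (3.57%) was in a non-coding exon, and none was in a UTR or a coding exon. In the whole optimal set 52.6% were in introns, 34.1% were intergenic, 2.79% were in non-coding exons and 8.88% were in 5′ UTRs. The windows are drawn around genes, so a low intergenic share follows in part from how the peaks were chosen. The intron shares of the whole lists were 77.8% of 126 peaks in replicate 1 against 51.6%, and 74.1% of 147 in replicate 3 against 49.0%.

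Of the 28 summits, 21 lay inside one of the 10 genes, all 21 of them in introns, and 7 lay outside, at gbb, Med, Dad and brk. The farthest of those outside was 1845 bp from its gene. The nearest optimal-set summits beyond 5 kb were 5272 bp downstream of shn at rank 951, 5425 bp upstream of brk at rank 802 and 5577 bp downstream of gbb at rank 2191. No peak was counted for 2 of the 10 genes.

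Few of the peaks were at starts. Within 500 bp of any annotated start there were 6 of the 28 (21.4%), against 47.1% of the whole optimal set, and for 3 of the 6, at gbb and at both Med peaks, the start was that of a neighbour. The other 3 were those of shn at rank 113, tkv at rank 1941 and Dad at rank 2525. For 22 of the 28 the nearest start was that of the member itself, and 23 lay 1000 bp or more from the member's own start. This difference in place was not tested, since the peaks of a gene are not independent of each other. The long genes shn and tkv held 12 and 5 of the 28, all in introns. In the whole lists the shares within 500 bp of a start were nearer to each other. They were 26.2% against 26.0% in replicate 1, 23.1% against 32.2% in replicate 3, and 24.8% against 28.7% with both replicates together.

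Motifs known for the pathway were rare around the summits. The silencer element bound by Mad, Med and Shn was in 0 of the 28 windows of 100 bases on each side of the summit, which allows up to 12.3% (exact Clopper-Pearson 95% interval), and in 2 of the 2546 windows of the whole optimal set (0.0786%). The site of the Brk repressor (TGGCGNN, where each N is C or T) was in 1 of 28 (3.57%), at shn rank 2301, against 6.83%, and the palindromic Smad box GTCTAGAC was in 0 of 28, against 0 of 2546. The GATA site, bound by GATA factors, was in 11 of 28 (39.3%, 21.5 to 59.4%), against 37.5% of the whole set. In windows centred 1100 bp to the left, it was in 10 of 28 and in 32.2% of the whole set. The other motifs were as sparse, with both strands searched for each. TATCGATA, the element of the Dref factor, was in 1 window, that of gbb (3.57%), against 2.95%, and the GAGA element was in 2, at tkv rank 1941 and shn rank 1802 (7.14%), against 6.01%. The site of the muscle factor Mef2 was in 0 of 28, against 10.9%, a share inside the interval of 0 to 12.3%. In the windows to the left, the Mef2 site was in 3 of 28, against 5.93% of the whole set. The Brk site was there in 4 of 28, against 9.35%. GC content was 38.0% ± 6.59 around the 28 summits and 36.9% ± 6.46 around all 2546 (mean and SD over windows).

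Other genes of the Dpp, BMP and Activin pathways were counted in the same way. Of 43 such genes, 18 (41.9%) had at least 1 optimal-set summit in the gene or within 5 kb, against 30.7% of all protein-coding genes, with 33 summits among them. These shares were not matched for window length. Over all protein-coding genes the share was 26.8% for windows of 10 to 15 kb and 49.8% for those of 60 kb or more. The higher share of the 43 genes is thus no measure of an excess. Their median density was 0 per 10 kb, as it was over all genes, and the negative binomial fit called none of them in either direction. By role, 8 of 17 extracellular factors, 2 of 6 receptors and cytoplasmic factors, 0 of 3 Activin-type ligands, and 8 of 17 nuclear factors and targets had at least 1.

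Only 4 of the 43 had 3 summits or more. Snoo, a Smad corepressor gene, had 4 (0.388 per 10 kb), with 4 in the top peaks of replicate 1 and 5 in those of replicate 3. The type II receptor gene wit, known for Gbb signalling in motor neurons, had 3 (1.71 per 10 kb), with 2 in replicate 1 and 3 in replicate 3. The gene dlp, which encodes a cell surface glypican, had 3 (0.612 per 10 kb), with 3 in each replicate. The corepressor gene CtBP had 3 (1.22 per 10 kb), with 1 in each replicate.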

How the data were processed

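ChIP-seq of GFP-tagged CG32264 was represented by 4 dm6 peak lists: the optimal IDR set, the list of both replicates together and the list of each of the 2 replicates. The authors' deposited peak signal ranked peaks within a list and was not compared between lists, since its scale belongs to each list. The authors' deposited −log10 q values, at most 3.63 in the optimal set, were read but entered no test. Which aligner, peak caller and thresholds were used is not given in the sources used here. Peak lists carry no read numbers, so depth is unknown and a gene without a summit may still be bound. The lists on dm3 were not used.

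Summits were assigned to genes of Ensembl BDGP6 (release 115) within 5 kb, and sequence was read from the RefSeq genome of Release 6. The 10 genes, the 43 other pathway genes, the motifs and the tests were chosen with earlier results of these data known. All 10 genes are named, as are other pathway genes with 3 summits or more or called by the fit, and neighbours whose start is nearest to a summit. The model across 13945 genes was checked on simulated data, but the outcome of that check is not reported here. The check therefore adds no support to the p-values given. Intervals are exact 95% intervals and cover counting error only. Nothing in the labels says that the replicates were grown apart, and the p-values run over genes. Windows for motifs reached 100 bp to each side of a summit. Alternatives were other windows (gene only, 2 kb, 10 kb), the stronger 50% of peaks, each replicate alone, a Poisson fit, a length term, assignment to the nearest start, and stricter overlaps. Python 3.11.15, numpy 2.4.6, scipy 1.17.1, pandas 2.3.3 and matplotlib 3.10.9 were used.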

Additional observations from a re-analysis of the deposited data

How the results depend on the processing

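No paired analysis was possible because both replicates belong to 1 group. With each replicate alone, the 10 genes held 22 to 29 summits (22 in replicate 1, 29 in replicate 3), 9 of 10 had at least 1 in either, and 20 to 21 of the 43 other pathway genes did. The stronger 50% of peaks left 15 summits. The Poisson fit called 1 of the 10 genes, shn, and 14 genes in all. Counting the gene alone left 21 summits in 6 of the 10 genes, with 0 at gbb, Med and brk. Of the other pathway genes, 11 had a summit in the gene alone and 10 when each summit went to the nearest protein-coding start. That assignment left 22 summits in 7 of the 10 genes, with 12 at shn, 3 at tkv and 0 at gbb and Med. An alternative chosen after seeing the data, only peaks in both replicates' top lists, left 19 summits and called 1 gene, CG12078. Another such alternative, overlapping peaks counted once, left 10 summits at shn. The causes were not tested. Over all settings run, 49 of the values that answer a comparison kept their call or stayed within 1.5 times, and 6 did not. Many of the 49 were counts of 0 calls, which were hardly free to change because few calls were within reach of the fit. The number 49 is therefore no measure of robustness. With unknown depth and 1 to 3 summits in most of these genes, the intervals of their densities were wide, and differences between them were not tested.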
